A study of Gallus gallus with 24 samples.

Results

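The melanin and melanosome genes are 10 genes that pigment cells use to build and fill the melanosome, the organelle in which melanin is made and stored. They were chosen by symbol in the deposited table, all 10 had a row among its 24356 genes, and all 10 passed the filter on low values that left 15001 genes for testing. They are PMEL (ENSGALG00000035350), MLANA (ENSGALG00000019756), TYR (ENSGALG00000017237), TYRP1 (ENSGALG00000015205), DCT (ENSGALG00000016899), OCA2 (ENSGALG00000016740), SLC45A2 (ENSGALG00000003310), SLC24A5 (ENSGALG00000004885), GPR143 (ENSGALG00000016615) and RAB38 (ENSGALG00000028018). Polyadenylated RNA was measured in cultured pieces of the retinal pigment epithelium (RPE), the pigmented layer behind the neural retina, of specific-pathogen-free chicken embryos at embryonic day 4. Explants were kept in maintenance medium alone (control), with fibroblast growth factor 2 (FGF2) at 10 ng/ml, with dichloroacetate (DCA) at 20 mM, or with both agents, for 24 or 48 h. DCA is an inhibitor of the pyruvate dehydrogenase kinases. Each of the 8 groups had 3 biological replicates, and each replicate pooled 3 explants, so 24 libraries stand for pools and not for single embryos. No group was an uncultured RPE, and every comparison below is between cultured explants.

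Melanosomes mature in stages. PMEL assembles into the fibrils on which pigment is laid down, with MLANA as its partner in early melanosomes, and the enzymes TYR, TYRP1 and DCT then turn tyrosine into melanin. Their work depends on the ion and proton balance of the organelle, to which the membrane transporters OCA2, SLC45A2 and SLC24A5 contribute, on the melanosomal receptor GPR143, and on RAB38, a small GTPase that helps carry cargo to the organelle. In vertebrates the genes are switched on by the basic helix-loop-helix factor MITF and its relatives, in the RPE together with the homeobox factor OTX2. The embryonic chick RPE loses pigment and can form neural retina when it is exposed to FGF2, and these genes are therefore a common readout of whether the tissue keeps its pigmented identity.

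Library depth, recovered from the table, was 32.82 to 72.72 M reads. The lowest value of any of the 10 genes in a library was 43.8 counts, for MLANA. The levels are normalized read counts, which were not divided by gene length, so levels are compared below between groups and not between genes. Of the RPE markers listed for checking the tissue, 10 of 10 had counts above 0 in every group. That is a low bar, which LRAT passed with group means of 19.5 to 50.1. The summed level of the RPE markers was 67814 ± 5763 (SD, n = 3) in control at 24 h. Other cells were present too: the summed level of 14 mesenchyme markers was 161480 ± 6408 and that of 10 blood markers 116357 ± 18321 in the same group. Of 11 neural crest and melanocyte markers in the table, PAX3, FOXD3 and MC1R had group means between 4.11 and 79.5. SOX10 was at 8461 ± 960. The first replicate of DCA at 48 h had the largest median deviation of the pigment genes from their group mean. All 10 genes lay below their group mean in it, 8 of them were the lowest of 3, and the median deviation was -0.47 on the log2 scale. The second replicate of that group lay on the other side, with a median deviation of 0.38 and 0 of the 10 genes below the group mean. Results of the 10 genes that turn on the first replicate are given with and without it. In bulk RNA, fewer pigmented cells and less RNA per pigmented cell cannot be told apart.

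The summed level of the 10 genes was highest in control explants and lowest where FGF2 was present for 48 h. It took 0.484%, 0.443% and 0.419% of all normalized counts in the 3 control libraries at 24 h, and 0.529%, 0.552% and 0.502% in those at 48 h. With FGF2 the share was 0.348%, 0.481% and 0.410% at 24 h and 0.157%, 0.129% and 0.108% at 48 h. With DCA it was 0.382%, 0.387% and 0.333% at 24 h and 0.164%, 0.329% and 0.280% at 48 h. At 24 h the FGF2 libraries overlapped the control libraries and the DCA libraries lay just below them, whereas at 48 h each treated library lay below every control library. With DCA and FGF2 together the share was 0.386%, 0.326% and 0.281% at 24 h and 0.0793%, 0.0944% and 0.0944% at 48 h, the lowest of all libraries. PMEL, TYRP1 and DCT supplied most of these reads, so the sum follows them and hides the genes with few reads.

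**Figure D1:**
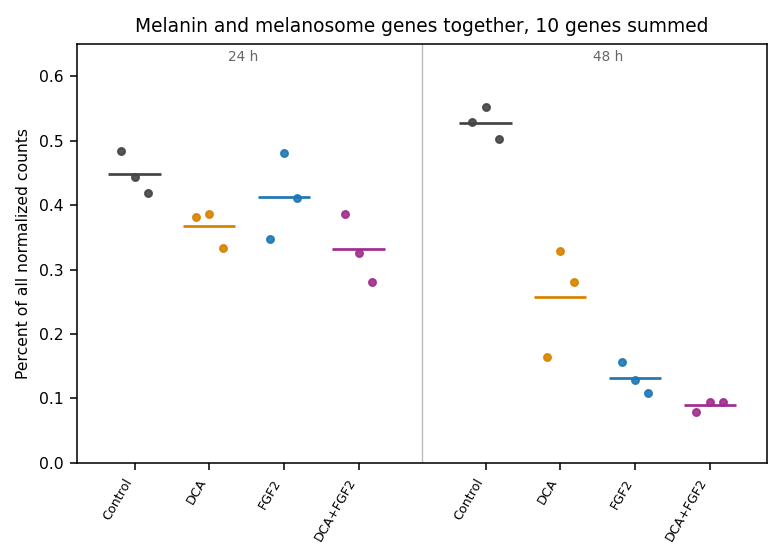
Summed normalized counts of the 10 melanin and melanosome genes as a percent of all normalized counts (y axis), for 4 treatments at 24 h and 48 h (x axis). Points are the 3 libraries of a group and lines their means. The control libraries at 48 h lie between 0.502% and 0.552% and the DCA+FGF2 libraries at 48 h between 0.0793% and 0.0944%.

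After 24 h, FGF2 had lowered 3 of the 10 genes and left 7 without a call. The 3 were MLANA, RAB38 and TYR. None was higher. Over all genes tested 15.5% were higher and 14.3% lower in that comparison, and the median log2 fold change was -0.34 for the 10 genes and -0.0067 for all genes. After 48 h all 10 genes were lower with FGF2 than in control, where 26.9% of all genes were higher and 27.7% lower. The median change of the 10 genes was -1.95, against -0.018 for all genes, and ran from -0.44 for SLC24A5 to -4.05 for MLANA. A gene was called in limma when its adjusted p, by Benjamini-Hochberg over all genes tested, was under 0.05.

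The FGF2 effect itself was more negative at 48 h than at 24 h for 8 of the 10 genes, by a test of that difference. The share of all genes was 14.7% in the higher and 15.4% in the lower direction. SLC45A2 (-0.39 ± 0.36, adjusted p = 0.46) and SLC24A5 (-0.47 ± 0.23, adjusted p = 0.13) did not pass. In time, 8 of the 10 genes fell in FGF2-treated explants between 24 and 48 h, with a background of 19.3% of genes higher and 18.2% lower, and a median of -1.21. MLANA and SLC45A2 were without a call. Control explants gave no call among the 10 genes between the same times, with 9.69% of all genes higher and 7.3% lower. Of the 10, 3 had an unadjusted p under 0.05 in limma, 4 in edgeR and 4 in DESeq2, and TYR was called there by both count tools. Its log2 change in control was 0.68 ± 0.24 (limma, adjusted p = 0.051).

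DCA on its own also lowered pigment genes. At 24 h it lowered TYR, SLC24A5 and PMEL, 3 of 10, and raised none, with 10.6% of all genes higher and 9.48% lower. The median of the 10 was -0.26. At 48 h it lowered 8 of 10, with 16.9% of all genes higher and 17.1% lower, and a median of -0.84. SLC45A2 (-0.48 ± 0.26, adjusted p = 0.16) and GPR143 (-0.58 ± 0.28, adjusted p = 0.12) were not called. Without the first replicate of DCA at 48 h, 6 were called. TYRP1 (-0.36, adjusted p = 0.31) and MLANA (-0.90, adjusted p = 0.073) were then not called, while PMEL (-1.14) and TYR (-1.23) were. The DCA effect differed between 48 and 24 h for OCA2 alone (-0.90 ± 0.15, adjusted p = 0.002), in a comparison with 2.67% of all genes higher and 2.24% lower.

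The lowest group mean of 7 of the 10 genes was that of both agents at 48 h. Against control, 7 of 10 were lower at 24 h (20.8% of all genes higher, 21.4% lower) with a median of -0.97. At 48 h 9 of 10 were lower (27.1% higher, 27.4% lower) with a median of -2.31. The exception at 48 h was SLC45A2 (-0.087 ± 0.26, adjusted p = 0.8). At 24 h PMEL, TYRP1 and DCT were not called.

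When DCA was added to FGF2, the added change was different from gene to gene. At 24 h it lowered TYR, SLC24A5 and SLC45A2, 3 of 10, with 18.1% of all genes higher and 17.8% lower. At 48 h TYR, TYRP1 and SLC24A5 were lower with both agents than with FGF2 alone, and MLANA was higher, with 25.4% of all genes higher and 27.4% lower. The medians of the 10 genes were -0.41 and -0.29. These comparisons share their FGF2 libraries with the comparison of FGF2 against control. The interaction, which is the DCA effect in the presence of FGF2 minus that in its absence, gave no call among the 10 at 24 h, with 1.68% of all genes in the higher and 1.24% in the lower direction. There, 2 of 10 had an unadjusted p under 0.05 in limma, 2 in edgeR and 2 in DESeq2, and DESeq2 called OCA2. At 48 h the interaction was positive for 5 of 10, MLANA, RAB38, PMEL, SLC45A2 and OCA2, with 15.1% of all genes in the higher and 15% in the lower direction. Without the first replicate of DCA at 48 h, 4 were called: MLANA, RAB38 and PMEL remained, OCA2 (adjusted p = 0.077) and SLC45A2 (adjusted p = 0.081) did not, and TYRP1 was called in the lower direction (-0.95, adjusted p = 0.037).

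Between 24 and 48 h, 7 of the 10 genes fell and SLC45A2 rose in explants with both agents, with 17.8% of all genes higher and 15.8% lower. PMEL, OCA2 and SLC24A5 fell in DCA-treated explants over the same interval, with 13.6% of all genes higher and 11.8% lower.

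**Figure D2:**
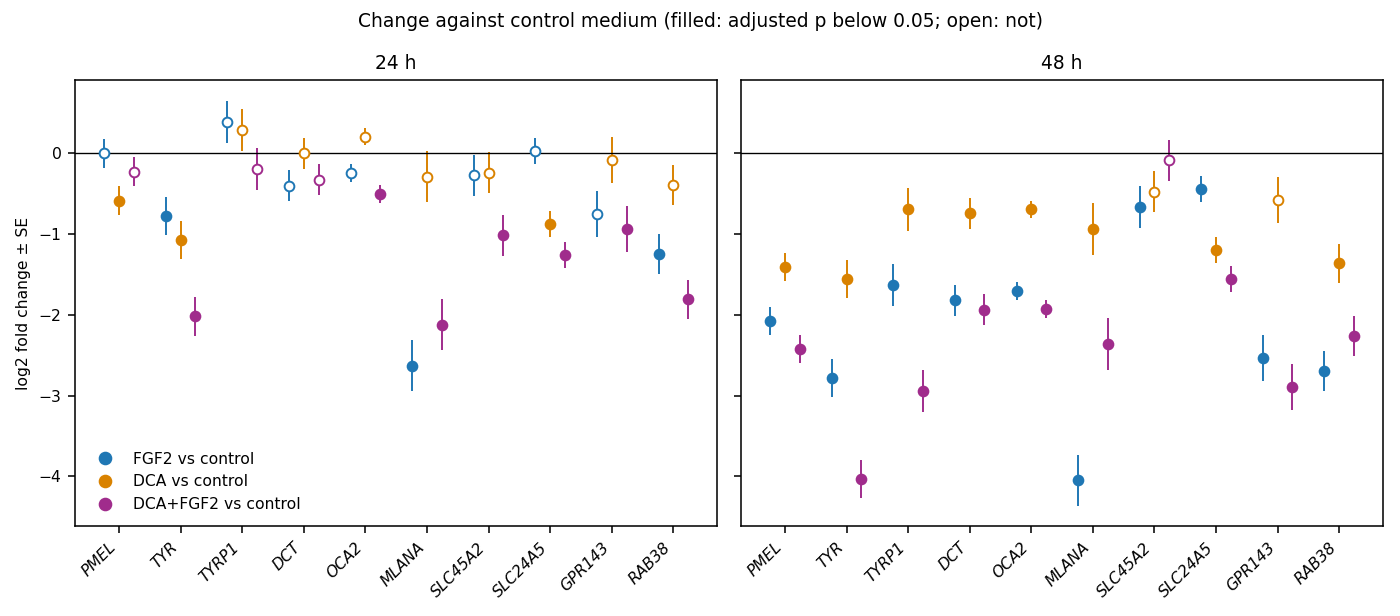
Log2 fold change against control (y axis, ± SE of the model) for each of the 10 genes (x axis) at 24 h (left) and 48 h (right), for FGF2, DCA and both agents. Filled points have an adjusted p under 0.05. At 24 h 3 genes are filled for FGF2, 3 for DCA and 7 for both, and at 48 h 10, 8 and 9.

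**Figure D3:**
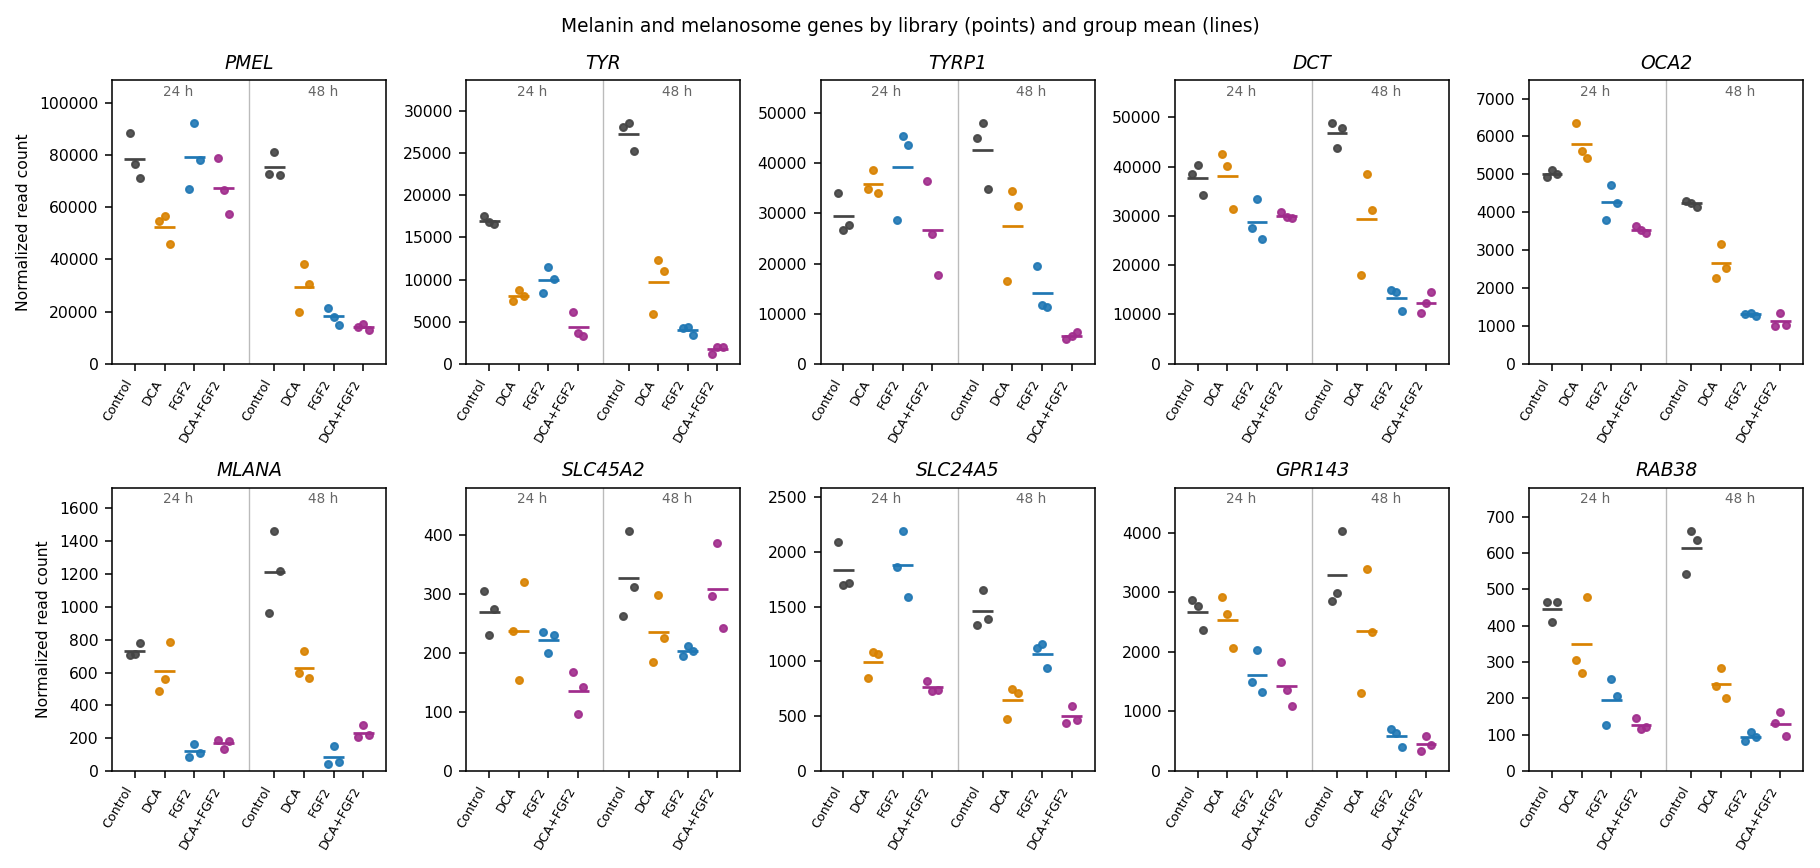
Normalized read counts (y axis, from 0) of each of the 10 genes in the 4 treatments at 24 h and 48 h (x axis), with the 3 libraries of a group as points and their mean as a line. With FGF2 at 24 h PMEL and TYRP1 overlap control, whereas MLANA is at 87.5 to 165 counts.

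Among the structural proteins, PMEL and MLANA differed most at 24 h. PMEL, the fibril protein, had 88425, 76760 and 71121 normalized counts in the control libraries at 24 h and 67000, 92249 and 78310 with FGF2. The FGF2 libraries spanned the control range, and the change was 0.00 ± 0.18 (limma, adjusted p = 1). By 48 h PMEL was at 72839, 81446 and 72467 in control and at 21351, 18060 and 14862 with FGF2. Every FGF2 library was below every control library, and the fall was -2.08 ± 0.18 (limma, adjusted p = 2.4e-09), a 4.22-fold lower level. DCA gave another course. PMEL was at 54707, 56606 and 46133 with DCA at 24 h, already below all controls (-0.59 ± 0.18, limma, adjusted p = 0.023), although this call was lost without the first control replicate (-0.50, adjusted p = 0.097) or without the third DCA replicate (-0.50, adjusted p = 0.098). At 48 h the DCA libraries had 19828, 38112 and 30712, all below control (-1.40 ± 0.18, limma, adjusted p = 4.5e-06).

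With both agents PMEL was at 78857, 66581 and 57440 at 24 h, which overlapped control and FGF2 alone, and at 14163, 15237 and 12957 at 48 h. The latter was below control (-2.42 ± 0.18, limma, adjusted p = 3.6e-10) and overlapped FGF2 alone (-0.35 ± 0.18, adjusted p = 0.11). The order of the PMEL group means ran from 79186 ± 12647 with FGF2 at 24 h to 14119 ± 1141 with both agents at 48 h, a 5.61-fold range. The upper 4 groups in that order, FGF2 at 24 h, both controls and DCA+FGF2 at 24 h, each overlapped their neighbour.

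MLANA, which binds PMEL in early melanosomes, was the gene with the largest FGF2 change among the 10 at both times. The control libraries at 24 h had 704, 711 and 778 normalized counts, and those with FGF2 had 87.5, 165 and 111. The groups were far apart (-2.63 ± 0.32, limma, adjusted p = 1.6e-06). At 48 h control had 963, 1463 and 1218 and FGF2 had 43.8, 151 and 55.0, a 16.5-fold lower level (-4.05 ± 0.32, limma, adjusted p = 7.3e-10). The second FGF2 library lay within the range of the 24 h group, and the SD of the group was 70.8% of its mean.

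DCA alone left MLANA at 485, 562 and 787 at 24 h (-0.29 ± 0.32, limma, adjusted p = 0.58) and at 595, 728 and 567 at 48 h (-0.93 ± 0.32, limma, adjusted p = 0.028). The 48 h call was lost without the second control replicate (-0.79, adjusted p = 0.11), the third control replicate (-0.92, adjusted p = 0.067) or the third DCA replicate (-0.86, adjusted p = 0.079), as well as without the first DCA replicate. With both agents at 48 h it was at 207, 279 and 218. All 3 libraries were below control and DCA alone, and all 3 were above the highest library with FGF2 alone. MLANA was therefore the only one of the 10 genes that was higher with DCA and FGF2 than with FGF2 alone at 48 h in limma (1.69 ± 0.32, adjusted p = 0.00013), and the interaction was 2.62 ± 0.45 (adjusted p = 0.00016). Its level with both agents at 24 h was 189, 137 and 182, and its log2 difference from FGF2 alone was 0.51 ± 0.32 there (adjusted p = 0.23).

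**Figure D4:**
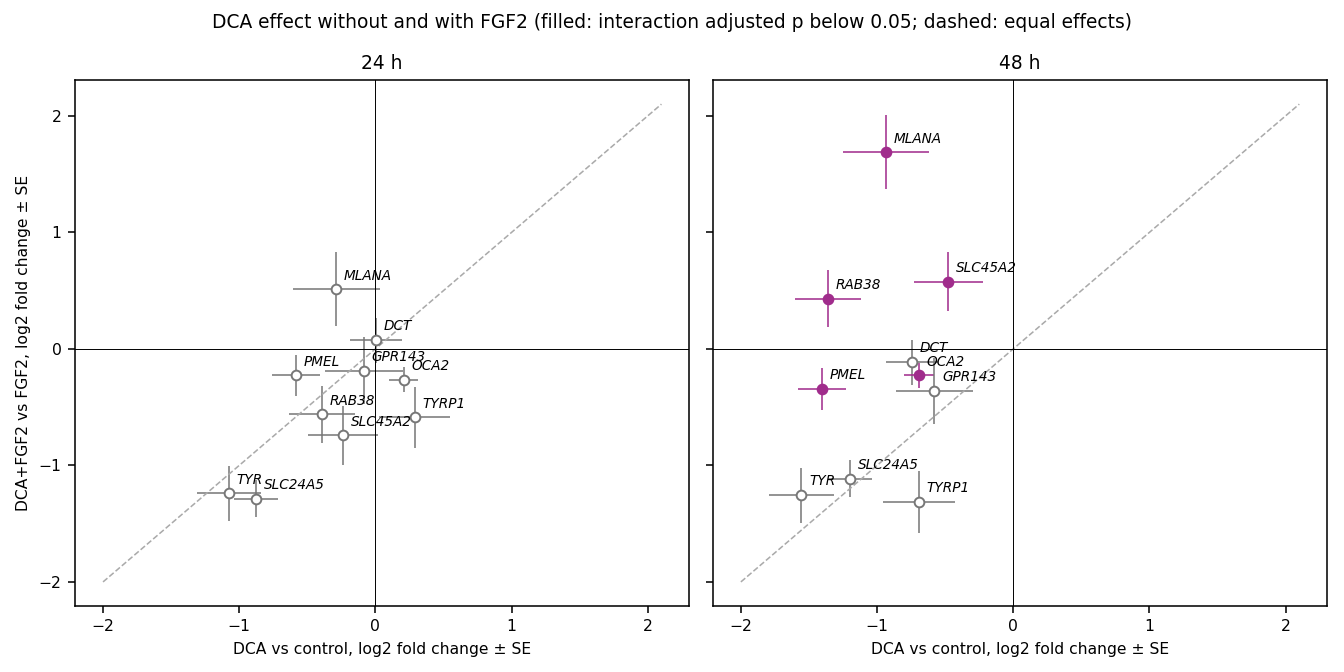
DCA effect in the absence of FGF2 (x axis, log2 fold change ± SE of DCA against control) and in its presence (y axis, DCA+FGF2 against FGF2) for the 10 genes at 24 h (left) and 48 h (right). The dashed line marks equal effects, and filled points have an interaction with an adjusted p under 0.05. At 48 h MLANA lies at -0.93 and 1.69, and TYR and SLC24A5 lie near the line.

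TYR (tyrosinase) catalyses the rate-limiting opening steps of melanin synthesis. It was at 17589, 16848 and 16566 in control at 24 h, with FGF2 at 8368, 11460 and 10106, and with DCA at 7444, 8784 and 8007. Neither treated group overlapped control. The changes were -0.78 ± 0.24 for FGF2 (limma, adjusted p = 0.015) and -1.08 ± 0.24 for DCA (limma, adjusted p = 0.0026), and the FGF2 call was lost without the first FGF2 replicate (-0.66, adjusted p = 0.079). With both agents it was at 6103, 3663 and 3293, below all libraries of either agent alone.

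At 48 h TYR was at 28142, 28562 and 25307 in control. FGF2 brought it to 4279, 4352 and 3370 (-2.78 ± 0.24, limma, adjusted p = 2.3e-09), and DCA to 5936, 12305 and 10984 (-1.55 ± 0.24, limma, adjusted p = 3.7e-05). The 4 groups were separate from each other at 48 h, since both agents together gave 1171, 2010 and 1960 (-4.04 ± 0.24 against control, limma, adjusted p = 1.2e-11). As a ratio of arithmetic group means, TYR had the widest span among the 10 genes, 15.9-fold (14.6-fold for MLANA, the next), from 27337 ± 1770 in control to 1714 ± 471 with both agents at 48 h. The DCA effect in the presence of FGF2 was -1.24 ± 0.24 at 24 h (limma, adjusted p = 0.00033) and -1.25 ± 0.24 at 48 h (limma, adjusted p = 0.00012). The interactions were -0.16 ± 0.33 and 0.30 ± 0.33 (adjusted p = 0.87 and 0.55), a difference of DCA effects smaller than its error.

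TYRP1, an enzyme and stabiliser of tyrosinase in the same pathway, had 34067, 26755 and 27745 counts in control at 24 h and 28763, 45536 and 43617 with FGF2. The libraries overlapped, with the second and the third FGF2 library above all controls (0.39 ± 0.26, limma, adjusted p = 0.29). With DCA at 24 h it had 34822, 38727 and 34069, each just above the highest control library (0.29 ± 0.26, limma, adjusted p = 0.49). At 48 h control had 45103, 47989 and 34991 and FGF2 had 19532, 11687 and 11208, with no overlap (-1.63 ± 0.26, limma, adjusted p = 1.9e-05). DCA alone gave 16496, 34455 and 31545 at 48 h. That change (-0.69 ± 0.26, limma, adjusted p = 0.046) was not called by edgeR (adjusted p = 0.066) or DESeq2 (adjusted p = 0.070), and not when the first DCA library was left out. Leaving out the first control replicate (-0.65, adjusted p = 0.12) or the second (-0.60, adjusted p = 0.14) also ended it, as did leaving out any of several libraries of other groups.

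DCA on top of FGF2 took TYRP1 lower at 48 h, to 4916, 5450 and 6226, all below FGF2 alone (-1.31 ± 0.26, limma, adjusted p = 0.00024). At 24 h the group with both agents was spread over 36588, 25890 and 17782, and its difference from FGF2 was -0.59 ± 0.26 (limma, adjusted p = 0.088).

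DCT (dopachrome tautomerase), which acts on the eumelanin branch after tyrosinase, had 38542, 40373 and 34268 counts in control at 24 h and 27472, 33386 and 25332 with FGF2. The FGF2 libraries were all lower, but the change did not pass (-0.40 ± 0.19, limma, adjusted p = 0.13). At 48 h the values were 48771, 43834 and 47761 in control and 14933, 14449 and 10726 with FGF2, a fall of -1.82 ± 0.19 (limma, adjusted p = 5.8e-08). DCA alone left it at 42582, 40169 and 31476 at 24 h, which spanned the control range. At 48 h DCA libraries had 18057, 38609 and 31254, all below control (-0.74 ± 0.19, limma, adjusted p = 0.005). With both agents DCT was at 30863, 29809 and 29487 at 24 h and at 10302, 12273 and 14443 at 48 h. The latter range overlapped FGF2 alone, and the log2 difference was -0.11 ± 0.19 (adjusted p = 0.65).

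The 3 transporters had 3 different courses. OCA2, the melanosomal membrane protein whose human gene underlies a form of oculocutaneous albinism, was among the tightest of the genes between replicates. It had 4916, 5117 and 4994 counts in control at 24 h, 3801, 4725 and 4245 with FGF2, and 6341, 5615 and 5428 with DCA. The DCA libraries lay above all controls and the FGF2 libraries below them, without a call (0.21 ± 0.11, adjusted p = 0.19, and -0.24 ± 0.11, adjusted p = 0.10). At 48 h it had 4305, 4250 and 4145 in control, 1310, 1339 and 1256 with FGF2, and 2263, 3163 and 2514 with DCA.

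Both falls of OCA2 at 48 h passed in limma, at -1.70 ± 0.11 for FGF2 (adjusted p = 3.1e-11) and -0.69 ± 0.11 for DCA (adjusted p = 5.1e-05). With both agents it was at 3632, 3525 and 3437 at 24 h, below control (-0.50 ± 0.11, limma, adjusted p = 0.00074), and at 997, 1341 and 1028 at 48 h. The difference of the 48 h DCA effects with and without FGF2 was 0.46 ± 0.15 (limma, adjusted p = 0.025). It was lost without the third DCA replicate (0.43, adjusted p = 0.055), the third FGF2 replicate (0.44, adjusted p = 0.056) or the second DCA+FGF2 replicate (0.33, adjusted p = 0.082) at 48 h, besides the first DCA replicate.

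SLC24A5, a potassium-dependent sodium-calcium exchanger of the melanosome and its secretory route, was lower wherever DCA was present. It was at 2087, 1694 and 1716 in control at 24 h, and with FGF2 at 1858, 2192 and 1590, which spanned the control range (0.03 ± 0.16, limma, adjusted p = 0.92). With DCA it was at 848, 1085 and 1064, and with both agents at 822, 733 and 741. Every library that received DCA was below every library that did not, at 24 h. DCA lowered it by -0.88 ± 0.16 in the absence of FGF2 (limma, adjusted p = 0.00065) and by -1.28 ± 0.16 in its presence (limma, adjusted p = 3.7e-06).

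At 48 h the SLC24A5 values were 1336, 1651 and 1388 in control, 1121, 1155 and 940 with FGF2, 475, 746 and 711 with DCA, and 436, 596 and 462 with both. The same order held, with no library that received DCA reaching one that did not. The DCA effects were -1.20 ± 0.16 (limma, adjusted p = 1e-05) and -1.11 ± 0.16 (limma, adjusted p = 6e-06), and the FGF2 effect was -0.44 ± 0.16 (limma, adjusted p = 0.025). The FGF2 call was lost without the second control replicate (-0.35, adjusted p = 0.11) or the third FGF2 replicate (-0.35, adjusted p = 0.11). The interaction was not called at 24 h (-0.41 ± 0.23, adjusted p = 0.39) or 48 h (0.09 ± 0.23, adjusted p = 0.82).

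SLC45A2, a sucrose- and proton-linked carrier that sets melanosome pH, moved least. Its highest group mean was 2.41-fold its lowest. It was at 305, 230 and 273 in control, 236, 200 and 230 with FGF2, 236, 154 and 321 with DCA and 168, 95.9 and 142 with both agents at 24 h. The last group was below all controls (-1.01 ± 0.26, limma, adjusted p = 0.0029) and below all FGF2 libraries (-0.74 ± 0.26, limma, adjusted p = 0.027). The latter call was lost without the first (-0.70, adjusted p = 0.079) or the third FGF2 replicate (-0.71, adjusted p = 0.069) and without the second DCA+FGF2 replicate (-0.51, adjusted p = 0.16).

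At 48 h SLC45A2 had 262, 406 and 312 counts in control and 194, 211 and 203 with FGF2 (-0.66 ± 0.26, limma, adjusted p = 0.032). The groups did not overlap, but the call was lost without any of the 3 FGF2 libraries (adjusted p from 0.054 to 0.078), without the second control library (-0.50, adjusted p = 0.15) and without the third (-0.69, adjusted p = 0.057). With DCA it had 184, 298 and 224. With both agents it had 296, 386 and 243, overlapping control and above all FGF2 libraries (0.58 ± 0.26 against FGF2, limma, adjusted p = 0.062). It was the only one of the 10 genes called higher at 48 h than at 24 h with both agents (1.19 ± 0.26, limma, adjusted p = 0.0011). The interaction at 48 h was 1.05 ± 0.36 (limma, adjusted p = 0.031), and without the first DCA, the second control, the third DCA, the first FGF2, the third FGF2 or the second DCA+FGF2 replicate it ran from 0.88 to 1.05 with adjusted p from 0.052 to 0.087.

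GPR143, a G protein-coupled receptor of the melanosome membrane, had 2881, 2780 and 2369 counts in control at 24 h and 1494, 2033 and 1320 with FGF2. All FGF2 libraries were lower, with an adjusted p of 0.052 (-0.75 ± 0.28, limma) that passed without the first DCA replicate at 48 h (adjusted p = 0.020) and in several other alternatives. At 48 h control had 2864, 2998 and 4035 and FGF2 706, 635 and 400, a 5.77-fold lower level (-2.53 ± 0.28, limma, adjusted p = 1.4e-07). DCA alone gave 2919, 2642 and 2065 at 24 h and 1305, 3387 and 2342 at 48 h. The DCA libraries overlapped control at both times. With both agents GPR143 was at 1838, 1354 and 1094 at 24 h (-0.93 ± 0.28 against control, limma, adjusted p = 0.011, and 0.061 without the third DCA+FGF2 replicate) and at 334, 583 and 435 at 48 h (-2.89 ± 0.28, limma, adjusted p = 2.7e-08).

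RAB38, the trafficking GTPase, fell early with FGF2. It had 466, 411 and 465 counts in control at 24 h and 127, 252 and 207 with FGF2, with a clear gap (-1.25 ± 0.24, limma, adjusted p = 0.00042). At 48 h it had 543, 661 and 637 in control, 83.3, 107 and 92.3 with FGF2 (-2.69 ± 0.24, limma, adjusted p = 5.7e-09) and 234, 285 and 200 with DCA (-1.36 ± 0.24, limma, adjusted p = 0.00021). The 3 groups did not overlap. At 24 h DCA alone gave 305, 269 and 479, of which the third library was above all controls (-0.39 ± 0.24, limma, adjusted p = 0.28).

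With both agents RAB38 was at 147, 114 and 122 at 24 h and at 131, 162 and 96.1 at 48 h, and it was not called over time (-0.0029 ± 0.24, adjusted p = 0.99) while it fell with FGF2 alone (-1.0 ± 0.24, limma, adjusted p = 0.0026). At 48 h the group with both agents overlapped FGF2 alone (0.43 ± 0.24, limma, adjusted p = 0.14). The DCA effect differed there by 1.79 ± 0.34 with and without FGF2 (limma, adjusted p = 0.00049). In the RefSeq gene table of assembly GRCg7b, which is not the build of the deposited table and was used for gene order alone, TYR and RAB38 are near neighbours with 4 protein-coding genes between them. TYRP1 and MLANA have 7 between them on the sex chromosome Z, which also holds SLC45A2.

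The pools also differed in transcripts of the sex chromosomes. HINTW, a gene of the female-specific W chromosome, ranged from 29.1 to 41687 counts over the 24 libraries. In the DCA+FGF2 group at 24 h it was at 12798, 29.1 and 27930, and in the DCA group at 48 h at 12474, 32509 and 21245. The part of embryo sex in the levels of TYRP1, MLANA and SLC45A2 was not tested.

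The regulators did not all move with the pigment genes. OTX2, the homeobox factor of RPE and photoreceptors, had 16101, 15181 and 14996 counts in control at 24 h and 5948, 7797 and 7061 with FGF2, and it fell at 24 h (-1.16 ± 0.08, limma, adjusted p = 4.4e-10) and at 48 h (-1.17 ± 0.08, limma, adjusted p = 6.6e-11). The difference of these effects was -0.013 ± 0.11 (adjusted p = 0.95). With both agents it was higher than with FGF2 alone at 24 h (0.39 ± 0.08, limma, adjusted p = 0.00056) and 48 h (0.24 ± 0.08, limma, adjusted p = 0.015). DCA alone gave no OTX2 call at 24 h (-0.018 ± 0.08, adjusted p = 0.91). At 48 h it lowered OTX2 to 11799, 14600 and 13499 counts (-0.34 ± 0.08, limma, adjusted p = 0.0024). The OTX2 call without the first DCA replicate is not given. MITF, the main pigment cell regulator, had 853, 715 and 874 counts in control and 1054, 942 and 1073 with FGF2 at 24 h, a rise of 0.33 ± 0.12 (limma, adjusted p = 0.042). It was at 1335, 1385 and 1129 in control, 915, 800 and 805 with FGF2 and 2087, 2164 and 1814 with DCA at 48 h. MITF fell with FGF2 (-0.61 ± 0.12, limma, adjusted p = 0.0002) and rose with DCA (0.66 ± 0.12, limma, adjusted p = 0.00027), while 8 of the 10 pigment genes were lower with DCA. With both agents at 48 h it was 1323, 1249 and 1380, in the control range.

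TFEC, a MITF relative of the RPE, fell with FGF2 at 24 h (-0.92 ± 0.28, limma, adjusted p = 0.017) and at 48 h, from 744, 623 and 728 counts to 96.4, 58.3 and 98.9 (-3.07 ± 0.28, limma, adjusted p = 8.2e-09). DCA lowered it at 48 h to 232, 495 and 547 (-0.81 ± 0.28, limma, adjusted p = 0.033). The lowest of these was the first replicate, in which the 10 pigment genes were low too. The TFEC call without that library is not given. GPNMB, a PMEL-like melanosomal and lysosomal glycoprotein, fell with FGF2 at 24 h (-0.98 ± 0.15, limma, adjusted p = 3.1e-05) and at 48 h, from 34652, 43200 and 36580 to 7906, 8729 and 7891 (-2.22 ± 0.15, limma, adjusted p = 8.5e-11). Unlike PMEL it was already below all controls at 24 h. DCA alone gave no GPNMB call at 24 h (-0.24 ± 0.15, adjusted p = 0.3). At 48 h it lowered GPNMB to 19328, 28996 and 26317 counts (-0.63 ± 0.15, limma, adjusted p = 0.0028). The GPNMB call without the first of these libraries is not given. RAB32, the close relative of RAB38, fell with FGF2 at 48 h (-0.87 ± 0.14, limma, adjusted p = 1.1e-05) and was not called with DCA at 48 h (0.024 ± 0.14, adjusted p = 0.92). MC1R, the melanocortin receptor of melanocytes, had group means between 11.1 and 76.4 counts, near the lower end of what was tested. Its level fell between 24 and 48 h with FGF2 (-2.75 ± 0.41, limma, adjusted p = 1.9e-05) and with both agents (-1.92 ± 0.41, limma, adjusted p = 0.0012). Against control, FGF2 gave no MC1R call at 24 h (0.89 ± 0.41, adjusted p = 0.11) or 48 h (-0.97 ± 0.41, adjusted p = 0.051). These 2 effects differed (-1.86 ± 0.58, limma, adjusted p = 0.019).

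**Figure D5:**
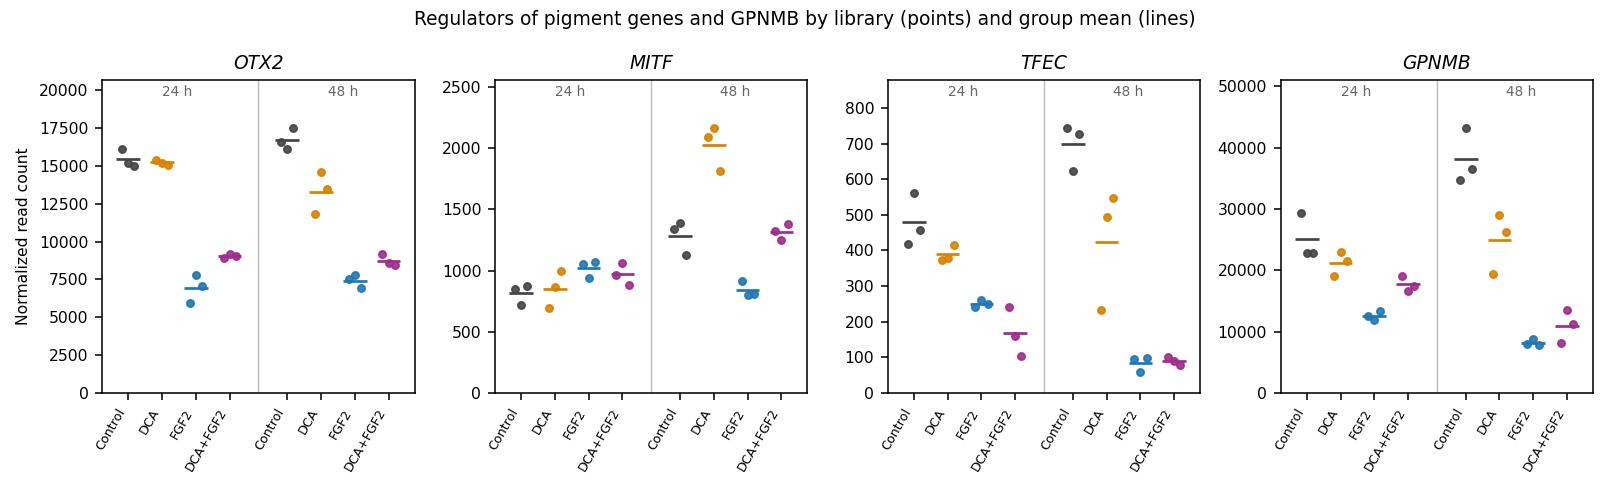
Normalized read counts (y axis, from 0) of OTX2, MITF, TFEC and GPNMB in the 4 treatments at 24 h and 48 h (x axis), with libraries as points and group means as lines. MITF is highest with DCA at 48 h, at 1814 to 2164 counts, and OTX2 has the lower levels of both FGF2 groups already at 24 h.

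A list of 53 other genes of pigment regulation, melanosome transport and biogenesis had 42 in the table. It holds MITF, TFEC, OTX2, GPNMB and RAB32 too, so its counts include the calls of these genes given above. FGF2 raised 2 and lowered 14 of the 42 at 24 h (15.5% and 14.3% of all genes), and raised 5 and lowered 27 at 48 h (26.9% and 27.7% of all genes), with a median of -0.43. DCA raised 1 and lowered 7 at 24 h (10.6% and 9.48%), and raised 5 and lowered 16 at 48 h (16.9% and 17.1%), with a median of -0.16. Both agents together raised 3 and lowered 18 at 24 h (20.8% and 21.4%), and raised 6 and lowered 21 at 48 h (27.1% and 27.4%), against control. The interaction at 48 h was positive for 12 and negative for 2 of the 42 (15.1% and 15%).

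Of that list, the genes with the smallest adjusted p besides OTX2, GPNMB and TFEC were LEF1 (-0.74 ± 0.14) and SLC7A11 (-1.14 ± 0.24) with FGF2 at 24 h, and RAB7A (-0.53 ± 0.05) with FGF2 at 48 h, each with a limma adjusted p of 0.00082 or less. LEF1 is a Wnt pathway factor, SLC7A11 the cystine transporter that serves pheomelanin and glutathione, and RAB7A a late endosomal GTPase. With DCA they were VPS11, VPS18, RAB7A and RAB17 at 24 h, and VPS11, SLC7A11, VPS41 and MITF at 48 h. VPS11, a core subunit of the vesicle-tethering complexes CORVET and HOPS, fell in all 4 DCA comparisons, by -0.75 ± 0.08 and -0.85 ± 0.08 in the absence of FGF2 and by -0.76 ± 0.08 and -0.58 ± 0.08 in its presence at 24 and 48 h (limma, adjusted p = 1.9e-06 or less). RAB17 was at 0 in every control library at 24 h and at 16.3 to 23.8 counts with DCA, near the lower end of what was tested.

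SLC7A11 fell with FGF2 at both times. With DCA alone its change was 0.22 ± 0.24 at 24 h (limma, adjusted p = 0.58). At 48 h its group means were 381 ± 35.2 in control, 71.7 ± 28.7 with FGF2, 1350 ± 248 with DCA and 512 ± 105 with both (SD, n = 3), and it rose with DCA by 1.81 ± 0.24 without and 2.88 ± 0.24 with FGF2 (limma, adjusted p = 7.8e-06 or less). CD63, a tetraspanin that sorts PMEL, was higher with both agents than with FGF2 alone at 48 h (1.06 ± 0.08, limma, adjusted p = 1.3e-09). Its interaction at 48 h was 0.91 ± 0.12 (limma, adjusted p = 8.6e-06), with those of BACE2, a protease that cleaves PMEL (0.80 ± 0.15), OTX2 (0.57 ± 0.11) and RAB7A (0.35 ± 0.07) next in the list. USF1, a transcription factor, was lower with both agents than with FGF2 alone at 24 h (-0.38 ± 0.08) and 48 h (-0.56 ± 0.08), and DTNBP1, a subunit of the sorting complex BLOC-1, at 24 h (-0.35 ± 0.08), each with a limma adjusted p of 0.0015 or less. HPS1 and ATP7A, which serve cargo delivery and copper supply to the melanosome, fell with both agents at 24 h (-0.91 ± 0.15 each, limma, adjusted p = 3.3e-05).

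Markers of other cells moved with the same treatments. With FGF2 at 48 h, 26.9% of all genes were higher and 27.7% lower. Of the RPE marker list, which holds MITF and OTX2 too, 9 of 10 were lower with FGF2 at 48 h, and their sum went from 75341 ± 5509 in control to 28063 ± 4971 (SD, n = 3). With DCA at 48 h 5 were lower and 1 higher (17.1% and 16.9% of all genes). RLBP1 (7822 to 24216 counts) and BEST1 (1194 to 3246) were widely spread in that DCA group. The count of RPE markers without its first replicate is not given. All 12 retina markers were higher with FGF2 at 48 h, and their sum went from 20658 ± 2151 to 114115 ± 2313. The 14 mesenchyme markers were all lower, with sums of 328091 to 388016 in control and 64238 to 75259 with FGF2. The 7 endothelial markers in the table were lower too, at 31187 to 47309 and 7423 to 8256. Of 10 blood markers in the table, 9 were tested and 8 were lower, with sums of 56029 to 83240 and 13375 to 20704. With FGF2 at 24 h, 11 of 14 mesenchyme, 5 of 7 endothelial and 6 of 9 blood markers were already lower, and 10 of 12 retina markers higher. Over all genes 15.5% were higher and 14.3% lower there. The RPE markers had not shifted as a list, with 2 higher and 2 lower of 10. Of 11 melanocyte markers 5 were higher and 2 lower.

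With DCA alone at 48 h, 7 of 7 endothelial markers were lower, and of 9 blood markers 7 were lower and 1 higher. The shares of all genes were 16.9% higher and 17.1% lower. The 3 of 14 mesenchyme markers that were lower, and the 2 higher and 3 lower of 12 retina markers, were near these shares. The summed endothelial markers were 12990 to 28847 there, below the 31187 to 47309 of control. The lowest of these sums was that of the first DCA replicate, and the count of endothelial markers without it is not given. When DCA was added to FGF2 at 48 h, 13 of 14 mesenchyme markers were higher and 9 of 12 retina markers lower than with FGF2 alone. Over all genes 25.4% were higher and 27.4% lower. With both agents the mesenchyme sums were 163789 to 190257 and the retina sums 64034 to 74214.

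Of 11 melanocyte markers, 3 were higher and 6 lower with FGF2 at 48 h (26.9% and 27.7% of all genes). Their sums were 9927 to 11263 in control and 4683 to 6492 with FGF2. SOX10 supplied most of that sum. It rose with FGF2 at 24 h (0.90 ± 0.24, limma, adjusted p = 0.0064), to 15763 ± 1952, and fell at 48 h to 2842 ± 644 (-1.49 ± 0.24, limma, adjusted p = 1.7e-05). In the first replicate of DCA at 48 h, in which the pigment genes were low, the summed RPE markers were 34543 against 73872 and 58159 in the other replicates. The summed mesenchyme markers were 232381 against 333151 and 334743, and the summed retina markers 23769 against 21809 and 25643. The summed endothelial markers were 12990 against 22978 and 28847, and the summed melanocyte markers 8909 against 13344 and 11859. The summed blood markers were 42783 against 37515 and 47902. The part of any of these cells in the pigment gene changes was not tested.

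The mean profile of the 10 genes over the 8 groups, each gene's log2 group means centred on their own mean, ran from 1.02 in control at 48 h to -1.22 with both agents at 48 h. DCT was closest to it (mean absolute difference 0.15), followed by GPR143 (0.27) and RAB38 (0.30), and MLANA was farthest (0.82). Of 10091 other genes with a symbol and a mean of at least 100 counts, the 6 closest were PKDCC (0.12), REPS2 (0.15), RCSD1 (0.16), TMEM204 (0.16), PECAM1 (0.17) and SIX2 (0.18). PECAM1 is an adhesion molecule of endothelial cells and was in the endothelial marker list, and SIX2 is a homeobox factor of embryonic mesenchyme. PKDCC, a secreted kinase, had 2953 ± 215 counts in control and 771 ± 77.4 with both agents at 48 h (SD, n = 3). For 8306 of these genes the profile was closer to the mean of the 10 than that of MLANA, and for 1 it was closer than that of DCT. Likeness here is over 8 group means that share the same libraries. Each of the 10 genes is also part of the mean profile, which favours it over the other genes.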

How the data were processed

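The authors' deposited file holds normalized read counts, a signal with a single size factor in each library. Every column (24 of 24) consisted of whole multiples of its smallest step to within 0.001 of a read, which gave reads and depth. Upstream, per the submitters' processing notes, were StringTie 2.1.4, STAR 2.7.5b, DESeq2 1.34.0 and Trim Galore 0.6.4, with the build GRCg6a. The kit was directional, per the labels, but the strand setting used for counting is not stated, so reads of overlapping or antisense genes remain uncertain.

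Values were analysed as log2(normalized count + 1), which understates changes of low genes. Genes with a mean of at least 10 (15001) entered a single limma-trend model of 8 group means with 16 residual degrees of freedom. Its SE follows each ±, except where SD is given. Each of 16 comparisons was adjusted by Benjamini-Hochberg over all genes. On simulated data for FGF2 against control at 48 h, 200 of 15001 genes were changed. Of these, 58.2% of changes of 1.5-fold, 83.6% of 2-fold and 98.5% of 4-fold were found, and 9 of 169 calls were false. In the measured comparison 26.9% of genes were called higher and 27.7% lower. The adjusted threshold therefore fell elsewhere, and the simulated rates need not hold for it. Versions were limma 3.58.1 in R 4.3.3, with DESeq2 1.42.0 and edgeR 4.0.16 as alternatives on recovered reads. RefSeq symbols matched for 10 of 10 genes.

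The 10 genes and all lists were chosen with earlier results of these data known. Named genes are the 10, MITF, TFEC, OTX2, GPNMB, MC1R, RAB32, up to 4 genes per comparison with the smallest adjusted p in the list of other pigment genes (not all given), and the 6 closest profiles. SOX10, PAX3, FOXD3 and HINTW appear as markers, and 1 other marker is not reported here by itself.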

Additional observations from a re-analysis of the deposited data

Results flagged for a closer look

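The FGF2 effect differed between 48 h and 24 h for 8 of the 10 genes, by a limma test of that difference over all genes. The log2 effect at 48 h minus that at 24 h was -2.08 ± 0.25 for PMEL (adjusted p = 3.4e-06), -2.0 ± 0.33 for TYR, -2.02 ± 0.37 for TYRP1, -1.42 ± 0.27 for DCT and -1.46 ± 0.15 for OCA2 (adjusted p = 0.00045 or less for these 4). It was -1.42 ± 0.45 for MLANA (adjusted p = 0.021), -1.78 ± 0.40 for GPR143 and -1.45 ± 0.34 for RAB38 (adjusted p = 0.003 or less for both). The MLANA difference was lost without the second FGF2 replicate at 24 h (-1.17, adjusted p = 0.067), the second control replicate at 48 h (-1.27, adjusted p = 0.054), the first (-1.07, adjusted p = 0.071) or the third FGF2 replicate at 48 h (-1.23, adjusted p = 0.061).

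The DCA effect at 48 h differed with and without FGF2 for MLANA (2.62 ± 0.45), RAB38 (1.79 ± 0.34), PMEL (1.06 ± 0.25), SLC45A2 (1.05 ± 0.36) and OCA2 (0.46 ± 0.15), with adjusted p from 0.00016 to 0.031. Between 48 and 24 h the DCA effect in the absence of FGF2 differed for OCA2 (-0.90 ± 0.15, adjusted p = 0.002).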

How the results depend on the processing

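Each comparison was repeated with pseudocounts of 0.5 and 8, no filter, a mean of at least 100, TMM scaling, only the groups compared, a replicate block, edgeR, DESeq2 and each of 24 libraries left out. Of 160 changes of a gene in a comparison, 101 kept their sign and side of the threshold in all 33. The cause of the others was not tested. The number of genes called for FGF2 against control at 24 h became 5 with only the groups compared and 2 to 5 with a library left out. For DCA+FGF2 against FGF2 at 24 h it was 5 in DESeq2 and 2 to 5 with a library left out. For the interaction at 24 h it was 1 with only the groups compared and 1 in DESeq2, and at 48 h 3 to 6 with a library left out (3 without the third DCA, the third FGF2 or the second DCA+FGF2 replicate at 48 h, with OCA2 and SLC45A2 lost). For control at 48 against 24 h it was 1 with pseudocount 8, 1 with a mean of at least 100, 6 with only the groups compared (5 higher, 1 lower), 1 in edgeR, 1 in DESeq2 and 0 to 1 with a library left out. For the DCA effect at 48 minus 24 h it was 2 in DESeq2 and 1 to 3 with a library left out, 3 without the second DCA replicate at 48 h. Same-numbered replicates did not deviate together (0 of 28 pairs of groups had every correlation over 0.1, range -0.092 to 0.097), and the replicate block gave 2 calls for the DCA effect at 48 minus 24 h and 7 for DCA against control at 48 h. The sign changed for 22 of the 160, in 44 fits, and 0 of these were called in either fit. With a library left out they ran, for PMEL, from -0.12 to 0.12 (FGF2 at 24 h) and -0.13 to 0.031 (control at 48 against 24 h). For TYR they ran from -0.43 to 0.011 (interaction, 24 h) and -0.023 to 0.55 (interaction, 48 h), and for TYRP1 from -0.45 to 0.068 (both agents at 24 h). For DCT they ran from -0.082 to 0.14 (DCA at 24 h), -0.011 to 0.19 and -0.27 to 0.0094 (DCA+FGF2 against FGF2 at 24 and 48 h) and -0.061 to 0.18 (interaction, 24 h). For MLANA they ran from -0.087 to 0.26 (DCA at 48 against 24 h). For SLC45A2 they ran from -0.49 to 0.039 (DCA at 24 h), -0.26 to 0.082 (both agents at 48 h), -0.25 to 0.27 (DCA at 48 against 24 h) and -0.52 to 0.0093 (DCA effect at 48 minus 24 h). For SLC24A5 they ran from -0.086 to 0.15 (FGF2 at 24 h) and -0.12 to 0.21 (interaction, 48 h). For GPR143 they ran from -0.19 to 0.058 (DCA at 24 h), -0.53 to 0.16 (DCA at 48 against 24 h), -0.30 to 0.076 (interaction, 24 h) and -0.15 to 0.54 (interaction, 48 h). For RAB38 they ran from -0.18 to 0.20 (both agents at 48 against 24 h) and -0.45 to 0.079 (interaction, 24 h). In edgeR and DESeq2 the sign changed for SLC45A2 with DCA at 48 against 24 h (-0.023 and -0.011) and RAB38 with both agents at 48 against 24 h (0.0044 and 0.021). With 3 pools per group, small differences remained undetected.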
